A study of Mus musculus with 16 samples.

Results

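F4/80- myeloid cells of the healing bone-to-tendon interface were compared between day 14 and day 1 after anterior cruciate ligament reconstruction (ACLR) in mice. In this operation a flexor digitorum longus tendon graft was drawn through bone tunnels, and the tissue where graft and bone meet, called the interface tissue, was digested to single cells on each day. The comparison rests on the 4 F4/80- libraries among 16 in all, 2 from day 1 and 2 from day 14, which were chosen by their population and day alone and are called replicate 1 and replicate 2 of each day. The other 12 libraries are those of CX3CR1+ macrophages, CD9+ macrophages and neutrophils, 2 for every population and day. All mice were wild-type C57BL/6 males (C57BL/6J in the study's methods) operated on at 12 weeks of age under anesthesia, with buprenorphine for pain after the operation and no altered gene in any group. Each library was made from the pooled cells of 5 to 7 mice, and the mice of the 2 days differed. The study counts too few mice for 16 separate pools of that size, so populations sorted on the same day share mice. The main tests between populations do not take this into account. The replicates therefore show the spread between pools. The p-values refer to a spread between replicates estimated over all 16 libraries, and not over the 4 F4/80- libraries alone.

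The sort kept live CD45+ CD11b+ cells without Ly6G and without F4/80 after cells bearing lineage markers (of progenitors, red cells, B cells, T cells and NK cells) had been set aside. CD11b is an integrin chain of myeloid cells, Ly6G marks mature neutrophils and F4/80, the product of Adgre1, marks macrophages. Such a gate can hold monocytes, immature granulocytes, eosinophils, basophils and dendritic cells. Wounded tissue first fills with neutrophils and monocytes, which make cytokines, chemokines and matrix-degrading enzymes, and these cells are later replaced or change their products as repair goes on. In sorted bulk samples fewer cells of a type and less RNA per cell cannot be told apart, so every value here is a level in the population as a whole.

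The 4 F4/80- libraries held between 10878529 and 18910479 counted reads. Levels are given as read counts scaled to the library's total (CPM) after scaling by the trimmed mean of M values (TMM), and differences as log2 fold changes of day 14 over day 1, with negative values for genes lower on day 14. A gene counted as called where 2 conditions held: a p under 0.05 in the quasi-likelihood test of edgeR, adjusted by Benjamini and Hochberg's method over 11998 genes, and a log2 fold change of 1 or more in either direction. CPM does not correct for the length of a gene, so levels are compared between days and not between genes. The 2 libraries of a day correlated across genes at 0.979 on day 1 and 0.988 on day 14 (Pearson, on log2 CPM, over genes, which are not independent replicates).

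Genes of the sorting antigens were first checked in each library. Adgre1 stood at 13.8 and 8.43 CPM on day 1 and 8.87 and 9.22 CPM on day 14, against 120.0 to 217 CPM in the macrophage libraries of both kinds, and its log2 fold change was -0.30 ± 0.24 (SE, adjusted p = 0.567). Ly6g was at 9.66 and 6.97 CPM on day 1 and 8.22 and 10.1 CPM on day 14 and did not pass the test (adjusted p = 0.878). Neither gene of the antigens that the gate excluded was thus called changed between the days. Itgam, which encodes CD11b, stood at 206 and 182 CPM on day 1 and 186 and 203 CPM on day 14, and Ptprc, which encodes CD45, had a log2 fold change of -0.42 ± 0.12 (SE, adjusted p = 0.0551). Cx3cr1, a fractalkine receptor of monocytes, had a log2 fold change of 0.95 ± 0.18 (SE, adjusted p = 0.00476), which passed the test but not the fold threshold. None of the 7 tested genes of the sort was called.

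Markers of several cell types were present in the gate on both days. Genes of neutrophil granules, such as Ngp, S100a9, Ltf and S100a8, were among the most abundant, and the 15 neutrophil markers together summed to 44544 and 38507 CPM on day 1 and 44376 and 48236 CPM on day 14. Monocyte markers summed to 9242 and 8295 CPM on day 1 and 10232 and 10049 CPM on day 14, and promyelocyte granule genes, which immature granulocytes make, to 2872 and 3624 CPM on day 1 and 3601 and 3538 CPM on day 14. Basophil and mast cell markers summed to 1694 and 1483 CPM on day 1 and 2355 and 2178 CPM on day 14, which is higher in both libraries of day 14 than in either of day 1. Progenitor markers summed to 652 and 703 CPM on day 1 and 873 and 932 CPM on day 14, with Gata2 on both lists. Kit, which encodes 1 of the lineage antigens, was at 30.4 and 32.03 CPM on day 1 and 61.8 and 76.9 CPM on day 14 and was not called. Macrophage markers were low and lower in sum on day 14, being at 239 and 228 CPM on day 1 and 119 and 113 CPM on day 14. Most of that fall was in Spp1, and the other 12 markers summed to 130 and 108 CPM on day 1 and 101 and 97.7 CPM on day 14. Markers of T and NK cells summed to 39.1 and 50.04 CPM on day 1 and 53.96 and 53.1 CPM on day 14, and of 16 of them only 5 reached the level needed for the test. The defining B cell genes Cd79a, Ms4a1 and Pax5 and the T cell genes Cd3e, Cd3g, Lck and Trac did not reach it. Of 14 B and plasma cell markers 6 did, with Ighm at 588 and 445 CPM and Jchain at 90 and 65.03 CPM on day 1. The fibroblast genes Dcn, Lum and Pdgfra did not reach it either. Of 19 markers of stroma, bone and endothelium 8 did, summing to 72.5 and 52.8 CPM on day 1 and 68.9 and 65.5 CPM on day 14. Pecam1 alone was at 56.3 and 40.3 CPM on day 1. The gate is therefore described by its antigens and not by the name of a single cell type.

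Between the days, 390 of the 11998 genes tested (3.25%) were called, 121 higher on day 14 (1.01%) and 269 lower (2.24%). In all 390 both libraries of one day lay above both of the other. A change large enough to be called makes such a separation likely, and its share over all tested genes is not given. Here and below it describes the values and adds no support to a call. Over all genes tested the median log2 fold change was -0.02, with 5784 values above 0 and 6205 below. When 1 of the 4 libraries was left out, the number called was 195 without day 1 replicate 1, 257 without day 1 replicate 2, 180 without day 14 replicate 1 and 174 without day 14 replicate 2, and 115 genes were called in all 4 of these fits. Counts for a gene list without each library are given below in this same order. A list's share of called genes is read against the 3.25% over all genes. It was 38.5% for matrix genes, 36.4% for chemokine receptors, 35.3% for heme and iron genes and 33.3% for chaperones. It was 30.4% for inflammatory cytokines, 26.7% for neutrophil markers, 26.3% for chemokines and 25.8% for glycolysis and hypoxia genes. Toll-like receptors, lectins and inflammasome genes had 14.3%, and complement and Fc receptor genes 10%.

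**Figure D1:**
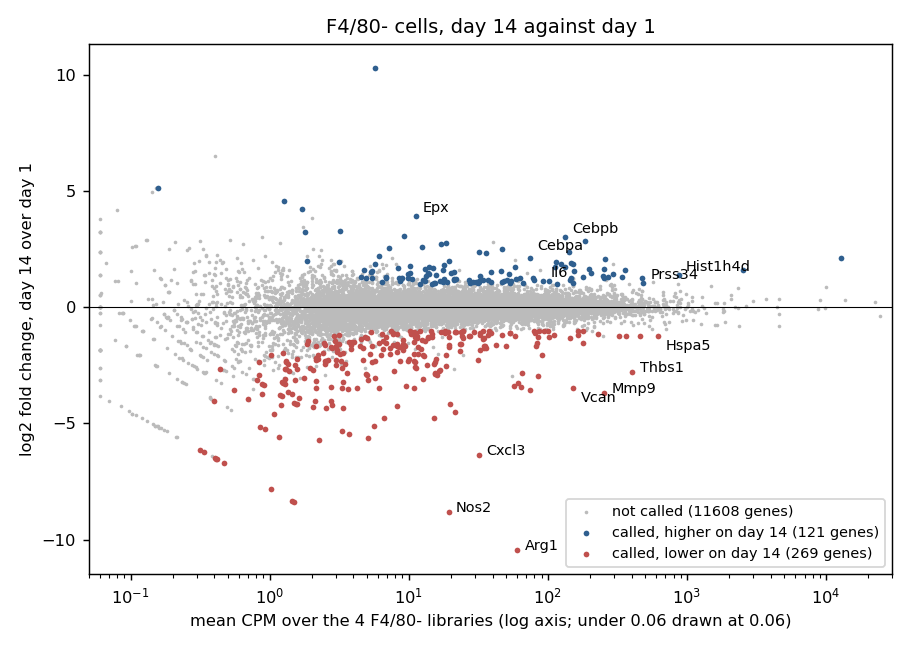
Log2 fold change of day 14 over day 1 (y axis) against the mean CPM over the 4 F4/80- libraries (x axis, log scale) for each tested gene, with the 121 genes called higher and the 269 called lower in colour. Values under 0.06 CPM are drawn at 0.06, fold changes of genes with few reads on 1 day depend on the prior count, and called genes lie on both sides of 0 over the range of levels.

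Of the genes selected by the size of the change, 15 were lower and 15 higher, each with non-overlapping groups and a mean of at least 10 CPM on the higher day. The genes at the lower end were Arg1, Nos2, Cxcl3, Stfa2l1, Spint1, Fpr1, Nt5e, Dab2, Mmp9, Socs3, Bst1, Vcan, Cxcl2, Mmp14 and Hmox1. At the higher end stood the eosinophil granule genes Epx and Prg2, the transcription factors Cebpa and Cebpb, 7 histone genes, and B3gnt2, Tmem160, Scand1 and Ubald2. Of the 30, 18 were called in each of the 4 fits with a library left out, among them 14 of the 15 lower ones but only Epx, Tmem160, Cebpa and Hist1h4c of the higher ones.

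**Figure D2:**
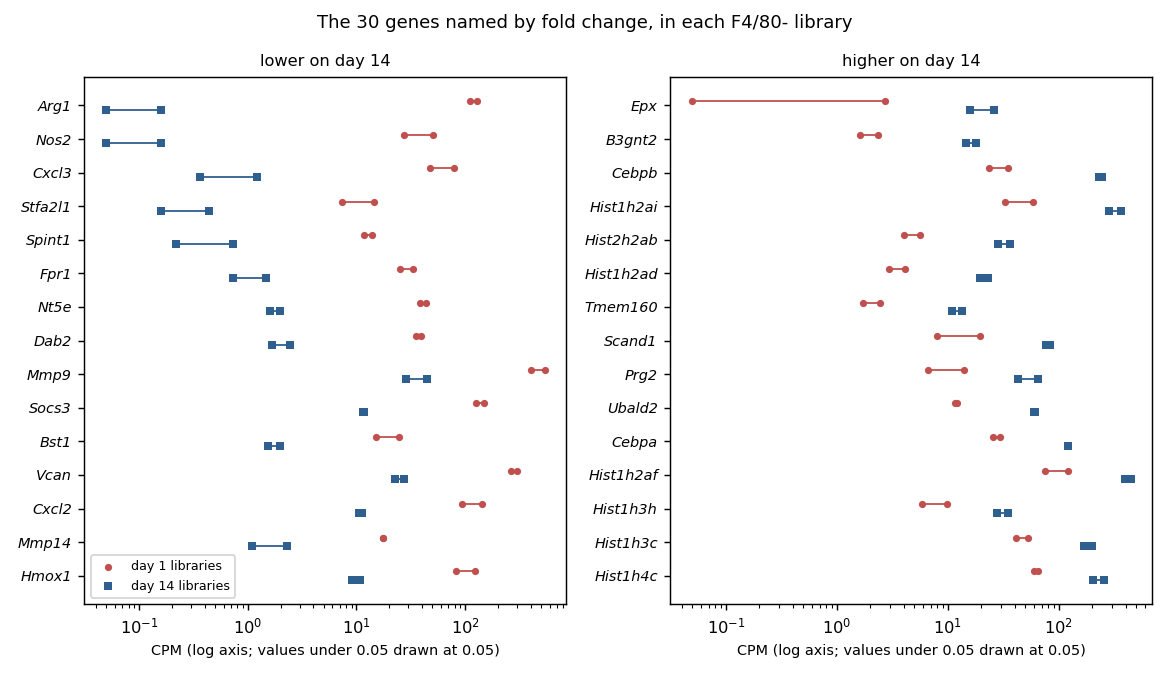
CPM of the 30 genes selected by the size of their change, in each of the 4 F4/80- libraries (x axis, log scale; values under 0.05 CPM drawn at 0.05), with day 1 and day 14 in different colours. For every gene both libraries of one day lie above both of the other, and Arg1 and Nos2 reach the lower limit on day 14.

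Of the lower genes that belong to no list, several encode surface proteins. Fpr1, the receptor for bacterial formyl peptides (chr17:17876471-17883940, - strand), was at 33.4 and 25.2 CPM on day 1 and 0.73 and 1.47 CPM on day 14 and fell by 4.75 on the log2 scale (SE 0.32, adjusted p = 7.72e-07). Nt5e, the ectoenzyme CD73 that makes adenosine, changed from 38.5 and 43.8 to 1.6 and 1.96 CPM and fell by 4.53 on the log2 scale (SE 0.39, adjusted p = 9.54e-06). Bst1, the ectoenzyme CD157, changed from 24.7 and 15.1 to 1.96 and 1.55 CPM and fell by 3.49 on the log2 scale (SE 0.31, adjusted p = 9.95e-06). Spint1, a membrane inhibitor of serine proteases, and Dab2, an endocytic adaptor, had log2 fold changes of -4.75 ± 0.48 (SE, adjusted p = 5.5e-05) and -4.18 ± 0.29 (SE, adjusted p = 9.32e-07). Stfa2l1, of the stefins that inhibit cysteine proteases, changed from 14.6 and 7.33 to 0.44 and 0.16 CPM and fell by 5.12 on the log2 scale (SE 0.89, adjusted p = 0.00449), and its reads may be split among near-identical stefin genes.

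Of the higher genes selected by size, Ubald2, B3gnt2, Scand1 and Tmem160 lie outside the groups below and have little known role in myeloid cells. Ubald2 was at 12 and 11.7 CPM on day 1 and 59.5 and 61.5 CPM on day 14 and rose by 2.35 on the log2 scale (SE 0.53, adjusted p = 0.0153). B3gnt2, which extends sugar chains of glycoproteins, changed from 1.61 and 2.34 to 18.1 and 14.6 CPM and rose by 3.04 on the log2 scale (SE 0.59, adjusted p = 0.00605). Scand1 and Tmem160 had log2 fold changes of 2.52 ± 0.59 (SE, adjusted p = 0.0183) and 2.56 ± 0.35 (SE, adjusted p = 0.000408). For all of them both libraries of day 14 lay above both of day 1. In CX3CR1+ macrophages Ubald2, B3gnt2, Scand1 and Tmem160 had log2 fold changes of 1.88, 3.17, 2.49 and 3.01. In CD9+ macrophages these were 1.11, 2.58, 0.81 and 1.97, and in neutrophils 0.41, 1.27, 1.33 and 2.36. None was called in the tests of a difference from the macrophages.

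The 2 enzymes that compete for arginine showed the widest change among the genes selected by size. Arg1, arginase 1 (ENSMUSG00000019987, chr10:24915221-24927484, - strand in mm10), converts arginine to ornithine and urea. It was at 111 and 129 CPM on day 1 and 0 and 0.16 CPM on day 14. Its reads, scaled to library size, were 1566 times as many on day 1 (95% interval 433 to 12940, counting error only, adjusted p = 1.16e-09), since day 14 held 2 reads in both libraries together. Nos2, the inducible nitric oxide synthase (chr11:78920787-78960254, + strand), which makes nitric oxide from arginine, was at 27.2 and 50.2 CPM on day 1 and 0 and 0.16 CPM on day 14. The ratio of day 1 over day 14 was 508 (95% interval 140.3 to 4194), again for counting error only, with adjusted p = 4.7e-06. Both genes thus went from 27.2 CPM or more in each library of day 1 to 2 reads on day 14. They were lower on day 14 in every other population too. Nos2 changed from 549 and 676 to 0 and 0.21 CPM in neutrophils and from 203 and 285 to 1.34 and 0.91 CPM in CD9+ macrophages. Arg1 changed from 368 and 483 to 0.78 and 1.3 CPM in CX3CR1+ macrophages and from 87.4 and 82.3 to 0.12 and 0 CPM in neutrophils.

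Of the other members of the list of arginine, itaconate and prostaglandin enzymes, Arg2 and Slc7a2 were also called. Slc7a2, which carries arginine into the cell, was at 3.61 and 6.46 CPM on day 1 and 0.44 and 0.49 CPM on day 14 and fell by 3.42 on the log2 scale (SE 0.56, adjusted p = 0.00189). Arg2, the mitochondrial arginase, changed from 1.9 and 2.47 to 0.22 and 0.65 CPM and fell by 2.34 on the log2 scale (SE 0.46, adjusted p = 0.00662). In all, 4 of the 16 tested members of this list (25.0%, against 2.24% of all genes) were called lower and 0 higher, with a median of -0.46. The members with the highest levels were not called: Lta4h and Alox5, enzymes of leukotriene synthesis, had log2 fold changes of 0.45 and -0.09, and Ptgs2, the inducible cyclooxygenase, -0.27 ± 0.25 (SE, adjusted p = 0.632). Without each library in turn 4, 3, 3 and 4 members were called, Arg1, Nos2 and Slc7a2 each time.

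Among cytokines, IL-1 and its own inhibitors were lower together on day 14 while Il6 was higher. Il1b, which encodes the main secreted IL-1, was at 80.05 and 70.9 CPM on day 1 and 22.2 and 25.2 CPM on day 14 and fell by 1.67 on the log2 scale (SE 0.19, adjusted p = 9.65e-05). Il1a changed from 4.93 and 7.88 to 0.36 and 0.24 CPM and fell by 4.34 on the log2 scale (SE 0.79, adjusted p = 0.00409). Il1rn, the receptor antagonist that blocks both, was at 33.8 and 39.3 CPM on day 1 and 9.82 and 10.04 CPM on day 14 and fell by 1.88 on the log2 scale (SE 0.26, adjusted p = 0.000532), and Il1r2, a decoy receptor, fell by 1.10 on the log2 scale (SE 0.18, adjusted p = 0.00165). The agonists and the inhibitors of this pathway thus all stood lower in both libraries of day 14. In neutrophils of day 1 Il1b was far higher, at 4363 and 6166 CPM. Its log2 fold changes were -1.29 in CX3CR1+ macrophages, -2.53 in CD9+ macrophages and -1.68 in neutrophils. Socs3, a feedback inhibitor of signalling by cytokines such as IL-6, was at 126 and 149 CPM on day 1 and 11.8 and 11.4 CPM on day 14 and fell by 3.57 on the log2 scale (SE 0.29, adjusted p = 4.7e-06). Il4ra, the shared receptor chain for IL-4 and IL-13, changed from 114 and 109 to 53.02 and 49.6 CPM and fell by 1.12 on the log2 scale (SE 0.17, adjusted p = 0.000833).

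Il6 (chr5:30013114-30019981, + strand) was the 1 cytokine called higher. It stood at 54.2 and 62.2 CPM on day 1 and 133 and 122 CPM on day 14 and rose by 1.13 on the log2 scale (SE 0.25, adjusted p = 0.0126). The 2 days did not overlap, but the call was absent in each of the 4 fits with a library left out. Of the 23 tested genes of the IL-1 family and inflammatory cytokines, 6 were called lower and 1 higher, and 6, 6, 5 and 5 were called without each library. The median of the list was -0.04, close to that of all genes, and Osm and Csf1 had log2 fold changes of 0.12 and 0.22 without a call.

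Chemokines that draw neutrophils through CXCR2 were lower on day 14. Cxcl2 was at 93.1 and 141 CPM on day 1 and 10.6 and 11.2 CPM on day 14 and fell by 3.43 on the log2 scale (SE 0.36, adjusted p = 5.48e-05). Cxcl3 changed from 47.7 and 79.5 to 0.36 and 1.22 CPM and fell by 6.35 on the log2 scale (SE 0.59, adjusted p = 1.54e-05). Neutrophils of day 1 held far more of both, with Cxcl2 at 6783 and 12316 CPM and Cxcl3 at 1235 and 2428 CPM. Both were lower on day 14 in every other population. Cxcl2 had log2 fold changes of -3.38 in CX3CR1+ macrophages, -2.52 in CD9+ macrophages and -4.38 in neutrophils. Neither gene was called in the tests of a difference from the macrophages. Cxcl1 had 1.8 and 3.99 CPM on day 1 and 0 and 0 CPM on day 14, so its 2 libraries of day 14 held no read. With a floor of 3 reads over the group it was at least 25.4-fold lower (adjusted p = 0.00784). Ccl7, which draws monocytes, was at 3.22 and 4.54 CPM on day 1 and 0.29 and 0.08 CPM on day 14 and fell by 4.28 on the log2 scale (SE 0.57, adjusted p = 0.000403). Cxcl16 changed from 10.7 and 12.1 to 4.58 and 5.63 CPM and fell by 1.16 on the log2 scale (SE 0.28, adjusted p = 0.0208). In total 5 of 19 tested chemokines were called lower and 0 higher, with a median of -1.50, and 4, 4, 3 and 3 were called without each library in turn. The most abundant member, Ccl3, had a log2 fold change of 0.06 ± 0.24 (SE, adjusted p = 0.926), and Ccl6 and Ccl9 had 0.21 and 0.04.

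Cxcl1, Cxcl2 and Cxcl3 lie in 1 cluster of chemokine genes on mouse chromosome 5 and are textbook targets of NF-kappaB. Their promoters are shown because the 3 genes moved together. The RefSeq sequences (build GRCm38.p6, the assembly named mm10) of the 150 bases before each start are printed 5′ to 3′, with matches to GGGNNNTTCC on either strand in capitals.
Cxcl1 (chr5:90891095-90891244, + strand): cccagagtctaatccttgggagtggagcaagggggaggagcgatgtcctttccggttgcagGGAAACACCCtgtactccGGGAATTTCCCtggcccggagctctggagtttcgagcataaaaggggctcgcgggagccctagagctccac
Cxcl2 (chr5:90903749-90903898, + strand): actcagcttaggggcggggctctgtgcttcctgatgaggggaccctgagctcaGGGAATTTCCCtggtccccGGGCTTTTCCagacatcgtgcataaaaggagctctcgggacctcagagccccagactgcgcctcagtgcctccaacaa
Cxcl3 (chr5:90785951-90786100, + strand): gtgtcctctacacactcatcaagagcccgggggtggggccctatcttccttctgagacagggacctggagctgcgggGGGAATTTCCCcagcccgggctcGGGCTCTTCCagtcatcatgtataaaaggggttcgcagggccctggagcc
Each of these promoters held 3 matches, some of which overlap, between 41 and 97 bases before the start. In the 250 bases before the start, the motif was found in 3 of the 3 called chemokines with a promoter in the RefSeq set and in 2 of 10 that were not called (Ccl9 and Cxcl10). It was found in 5.31% of all 27025 genes with a promoter. A match describes the letters in this window and not the binding of a factor.

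Some chemokine receptors were lower too. Cxcr2, the receptor of Cxcl1, Cxcl2 and Cxcl3, was at 141 and 107 CPM on day 1 and 39.6 and 38.8 CPM on day 14 and fell by 1.66 on the log2 scale (SE 0.38, adjusted p = 0.017). Ccr1 changed from 148 and 124 to 62.5 and 69.3 CPM and fell by 1.04 on the log2 scale (SE 0.14, adjusted p = 0.00042). Ackr3, an atypical receptor that takes up CXCL12, had 1 read on day 14, with a ratio of day 1 over day 14 of 43.01 (95% interval 7.47 to 1723) and adjusted p = 0.0196. Of 11 tested chemokine receptors 4 were called lower, these 3 among them, and 0 higher, with a median of -0.13 and 2, 4, 2 and 2 calls without each library, and none of these 3 was called each time. Ccr2, which brings monocytes out of the bone marrow, was at 306 and 303 CPM on day 1 and 321 and 268 CPM on day 14 and had a log2 fold change of -0.05 ± 0.22 (SE, adjusted p = 0.94), and Cxcr4, which holds cells in the marrow, 0.34 ± 0.12 (SE, adjusted p = 0.111).

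Genes of the NF-kappaB pathway itself gave 2 calls, 1 in each direction. Of 18 tested subunits and feedback inhibitors, Tnfaip3 was called higher and Traf1 lower (11.1%, against 3.25% of all genes), with a median of -0.09. Tnfaip3, which encodes the inhibitor A20, was at 197 and 198 CPM on day 1 and 532 and 447 CPM on day 14 and rose by 1.31 on the log2 scale (SE 0.26, adjusted p = 0.00774). Traf1 changed from 11.4 and 15.3 to 4.36 and 3.75 CPM and fell by 1.71 on the log2 scale (SE 0.44, adjusted p = 0.0295). Neither call was kept in all 4 fits with a library left out (0, 0, 0 and 1 calls). Among the members with the highest levels Nfkbiz had 0.83, Nfkb1 0.16 and Nfkbia 0.65 on the log2 scale, none of them called.

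Of 26 tested genes of extracellular matrix, its breakdown and wound repair, 10 were called lower and 0 higher, with a median of -0.76. The gelatinase Mmp9 (chr2:164940780-164955850, + strand) was at 538 and 404 CPM on day 1 and 28.4 and 44.8 CPM on day 14 and fell by 3.69 on the log2 scale (SE 0.50, adjusted p = 0.000418). Neutrophil collagenase, Mmp8, changed from 164 and 136 to 17.9 and 20.9 CPM and fell by 2.96 on the log2 scale (SE 0.29, adjusted p = 2.86e-05). The membrane-bound protease Mmp14 changed from 17.4 and 17.5 to 1.09 and 2.29 CPM and fell by 3.38 on the log2 scale (SE 0.35, adjusted p = 4.31e-05). Mmp19 and Adam8, 2 further metalloproteases, had log2 fold changes of -2.36 ± 0.34 (SE, adjusted p = 0.00068) and -2.06 ± 0.21 (SE, adjusted p = 4.31e-05). Both libraries of day 1 exceeded both of day 14 for each of these enzymes, so the 5 proteases moved in the same direction.

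The other 5 called members encode matrix proteins, proteins that bind them and a protease inhibitor. Thbs1, thrombospondin 1, which activates TGF-beta, was at 689 and 722 CPM on day 1 and 90.7 and 116 CPM on day 14 and fell by 2.77 on the log2 scale (SE 0.28, adjusted p = 3.36e-05). Vcan, the proteoglycan versican (chr13:89655312-89742509, - strand), a gene of classical monocytes, was at 299 and 262 CPM on day 1 and 27.4 and 22.8 CPM on day 14 and fell by 3.48 on the log2 scale (SE 0.25, adjusted p = 1.57e-06). Spp1, osteopontin, changed from 109 and 121 to 17.4 and 15.1 CPM and fell by 2.82 on the log2 scale (SE 0.25, adjusted p = 9.57e-06). Tgfbi changed from 574 and 443 to 228 and 207 CPM and fell by 1.22 on the log2 scale (SE 0.17, adjusted p = 0.000515), and Timp1, an inhibitor of metalloproteases, from 3.56 and 2.15 to 0.22 and 0.08 CPM and fell by 4.14 on the log2 scale (SE 0.95, adjusted p = 0.0185). Fn1 and F13a1, fibronectin and a coagulation factor of monocytes, were not called, with log2 fold changes of -0.05 ± 0.23 (SE, adjusted p = 0.942) and 0.04 ± 0.23 (SE, adjusted p = 0.952). Without each library 10, 10, 9 and 9 members were called, and all but Timp1 were called each time.

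Spp1 is also a marker of macrophages, and C1qb, a complement gene of the same marker list, changed from 3.81 and 0.78 to 0.07 and 0.24 CPM and fell by 3.80 on the log2 scale (SE 1.01, adjusted p = 0.0363). These were the 2 called of 13 tested macrophage markers, whose sum with and without Spp1 is given above, and C1qb was below 4 CPM in each library. Adgre1 (values above) and Cd68, at 59.8 and 49.7 CPM on day 1 and 47.2 and 41.7 CPM on day 14, were not called. In the CD9+ macrophages of day 1, Spp1 was at 2582 and 3374 CPM and Arg1 at 2180 and 2602 CPM. The part that macrophages in the gate may have in these falls was not tested. Of 9 tested osteoclast genes, Mmp9 and Ocstamp were called lower, the latter from 1.95 and 1.37 to 0.07 and 0.24 CPM, while Acp5 and Nfatc1 had log2 fold changes of 0.23 and 0.04. Of 16 monocyte markers 1 was called, Vcan (6.25%, against 3.25% of all genes). Lyz2 and Chil3 had log2 fold changes of 0.36 ± 0.20 (SE, adjusted p = 0.364) and 0.35 ± 0.25 (SE, adjusted p = 0.476).

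Of the neutrophil markers a few were lower, while the most abundant were not called. Retnlg, expressed by mature neutrophils, was at 123 and 98.3 CPM on day 1 and 10.6 and 12.3 CPM on day 14 and fell by 3.27 on the log2 scale (SE 0.30, adjusted p = 1.34e-05), beside Mmp8, Mmp9 and Cxcr2 above. These 4 of 15 tested neutrophil markers were called lower and 0 higher, with 3, 4, 3 and 3 calls without each library. Ngp, a protein of specific granules, was at 12883 and 11485 CPM on day 1 and 14431 and 15634 CPM on day 14 and had 0.30 ± 0.48 (SE, adjusted p = 0.799) on the log2 scale. Ltf, lactoferrin, had -0.08 ± 0.50 (SE, adjusted p = 0.954), and S100a9, a subunit of calprotectin, 0.29 ± 0.43 (SE, adjusted p = 0.782). In neutrophils Retnlg was at 2797 and 1703 CPM on day 1 and 3579 and 3434 CPM on day 14. Mmp9 was at 6048 and 4130 CPM on day 1 and 6076 and 6430 CPM on day 14 there. Of the promyelocyte genes Mpo, myeloperoxidase, had 0.20 ± 0.34 (SE, adjusted p = 0.817), and 0 of 9 members of that list were called, with a median of 0.20.

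A few pattern receptors were lower, 3 of them C-type lectins. Clec4e, the Mincle receptor, was at 83.5 and 79.6 CPM on day 1 and 34.8 and 35.1 CPM on day 14 and fell by 1.22 on the log2 scale (SE 0.22, adjusted p = 0.00379). Its neighbours on chromosome 6, Clec4d and Clec4n (Dectin-2), had log2 fold changes of -2.73 ± 0.38 (SE, adjusted p = 0.000436) and -2.94 ± 0.37 (SE, adjusted p = 0.000275). Tlr5, the receptor for flagellin, changed from 4.2 and 4.03 to 1.75 and 1.71 CPM and fell by 1.24 on the log2 scale (SE 0.23, adjusted p = 0.00519). These were the 4 called of 28 tested Toll-like receptors, lectins and inflammasome genes, all lower, with a median of -0.30 and 4, 4, 2 and 2 calls without each library. Clec5a, a more abundant C-type lectin, was at 257 and 225 CPM on day 1 and 166 and 176 CPM on day 14 and was not called (-0.50 ± 0.16 (SE, adjusted p = 0.0937)). Nlrp3 and Trem1 had 0.17 ± 0.27 (SE, adjusted p = 0.795) and -0.62 ± 0.20 (SE, adjusted p = 0.084).

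Antigen presentation and interferon genes gave few calls, but the shares called lower were 14.3% and 5.88%, against 2.24% of all genes. Values below 0 were 11 of 14 and 24 of 34. MHC class II presentation genes summed to 1294 and 1153 CPM on day 1 and 775 and 844 CPM on day 14. For interferon-stimulated genes the sums were 1147 and 952 CPM on day 1 and 663 and 657 CPM on day 14. H2-Eb1, a chain of MHC class II, was at 113 and 100.4 CPM on day 1 and 44.2 and 60.8 CPM on day 14 and fell by 1.03 on the log2 scale (SE 0.22, adjusted p = 0.0127), and Cd80, a costimulatory ligand, fell by 1.17 on the log2 scale (SE 0.30, adjusted p = 0.0308). These were 2 of 14 tested members, with a median of -0.44, and neither was kept in all 4 fits with a library left out (0, 2, 0 and 1 calls). Cd74 and H2-Aa had log2 fold changes of -0.68 and -0.68 without a call. Of 34 tested interferon-stimulated genes, Oas2 and Ifitm1 were called lower and 0 higher, with a median of -0.28, and both were kept in all 4 of those fits. Oas2 changed from 18.1 and 15.1 to 3.35 and 3.75 CPM and fell by 2.22 on the log2 scale (SE 0.23, adjusted p = 3.71e-05), and Ifitm1 from 138 and 111 to 44.8 and 40.2 CPM and fell by 1.55 on the log2 scale (SE 0.23, adjusted p = 0.000927). Of 20 tested complement and Fc receptor genes, C1qb and Fcgr4 were called lower, with 0, 3, 0 and 1 calls without each library. Fcgr4, an activating receptor for IgG, was at 17.4 and 14.1 CPM on day 1 and 5.82 and 7.26 CPM on day 14 and fell by 1.27 on the log2 scale (SE 0.24, adjusted p = 0.00553). Fcer1g and Fcgr3 had -0.14 and -0.21 and were not called.

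Several genes that respond to low oxygen were lower on day 14. Such genes are switched on by HIF when oxygen is scarce and include most glycolytic enzymes. Slc2a1, the glucose transporter GLUT1, was at 46.6 and 58.7 CPM on day 1 and 15.7 and 16.9 CPM on day 14 and fell by 1.69 on the log2 scale (SE 0.27, adjusted p = 0.00138). Bnip3, which marks mitochondria for removal in hypoxia, changed from 24.6 and 26.4 to 4.95 and 4.41 CPM and fell by 2.44 on the log2 scale (SE 0.15, adjusted p = 5.97e-07). Egln3, an oxygen sensor that is itself induced by HIF, changed from 24.7 and 35.1 to 9.31 and 9.06 CPM and fell by 1.70 on the log2 scale (SE 0.23, adjusted p = 0.00042). The collagen prolyl hydroxylase P4ha1 and the cytokine Mif had log2 fold changes of -1.57 ± 0.19 (SE, adjusted p = 0.000223) and -1.76 ± 0.24 (SE, adjusted p = 0.000436). Hilpda, Ankrd37 and Pfkl had -1.67, -2.76 and -1.21 and were called too.

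Over the whole list of glycolysis and hypoxia genes, 8 of 31 tested members were called lower and 0 higher, and 29 of the 31 had values below 0, with a median of -0.45. The abundant glycolytic enzymes moved little by comparison: Pkm had -0.58 ± 0.17 (SE, adjusted p = 0.0612), Aldoa -0.81 ± 0.16 (SE, adjusted p = 0.00747) and Gapdh -0.70 ± 0.13 (SE, adjusted p = 0.00587). Without each library 5, 5, 6 and 5 members were called, with Slc2a1, Bnip3, Egln3, P4ha1 and Mif each time.

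Of 17 tested heme and iron genes, 6 were called lower and 0 higher. Hmox1, heme oxygenase 1 (chr8:75093621-75100589, + strand), which breaks down heme and frees its iron, was at 82.9 and 124 CPM on day 1 and 9.09 and 10.8 CPM on day 14 and fell by 3.37 on the log2 scale (SE 0.32, adjusted p = 2.28e-05). The ferritin chains that store that iron, Fth1 and Ftl1, changed from 572 and 714 to 281 and 258 CPM and from 230.0 and 211 to 108 and 108 CPM. Fth1 fell by 1.25 on the log2 scale (SE 0.21, adjusted p = 0.00271), and Ftl1 fell by 1.04 on the log2 scale (SE 0.21, adjusted p = 0.00747). Ferritin genes have many near-identical pseudogenes, so reads of Fth1 and Ftl1 may be split among copies. Slc11a1, an iron transporter of phagosomes, and the metallothionein Mt1 had log2 fold changes of -1.23 ± 0.26 (SE, adjusted p = 0.0111) and -1.26 ± 0.24 (SE, adjusted p = 0.00605). Mt2 had 1 read on day 14 and a ratio of day 1 over day 14 of 46.7 (95% interval 8.13 to 1868). The list had a median of -0.39, 4 of 17 values above 0 and 4, 3, 3 and 1 calls without each library, Hmox1 alone each time. Lcn2, which binds bacterial iron carriers, was not called (-0.29 ± 0.35 (SE, adjusted p = 0.72)), nor was the transferrin receptor Tfrc (0.49 ± 0.23 (SE, adjusted p = 0.262)).

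Several chaperones of the endoplasmic reticulum (ER) and of the heat shock response were lower on day 14. Unfolded proteins in the ER induce Hspa5 and its partners through factors that bind the ER stress element. Hspa5, the ER chaperone BiP, was at 886 and 868 CPM on day 1 and 395 and 346 CPM on day 14 and fell by 1.24 on the log2 scale (SE 0.17, adjusted p = 0.000405). Its partners Hyou1 and Pdia6 changed from 228 and 232 to 106 and 95.7 CPM and from 242 and 238 to 126 and 108 CPM. Hyou1 fell by 1.19 on the log2 scale (SE 0.20, adjusted p = 0.00202), and Pdia6 fell by 1.04 on the log2 scale (SE 0.15, adjusted p = 0.000681). The ER proteins Sdf2l1 and Creld2 had log2 fold changes of -1.05 ± 0.18 (SE, adjusted p = 0.00318) and -1.19 ± 0.22 (SE, adjusted p = 0.005). Both libraries of day 1 exceeded both of day 14 for each.

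Some chaperones outside the ER moved in the same direction. Hspd1 and Hspe1, which form the folding chamber of mitochondria, had log2 fold changes of -1.28 ± 0.21 (SE, adjusted p = 0.00201) and -1.25 ± 0.33 (SE, adjusted p = 0.0349). Hsph1, a cytosolic partner of Hsp70, changed from 57.3 and 44.5 to 15.1 and 13.3 CPM and fell by 1.84 on the log2 scale (SE 0.21, adjusted p = 8.78e-05). Hspa1b, an inducible Hsp70, was at 44.6 and 18.9 CPM on day 1 and 7.27 and 3.51 CPM on day 14, with a spread of over a factor of 2 on each day, and fell by 2.55 on the log2 scale (SE 0.48, adjusted p = 0.0054). It has a near-identical copy, Hspa1a, between which reads may be split. Of 27 tested chaperones 9 were called lower and 0 higher, 25 had values below 0, and the median was -0.77. Hsp90ab1 and Hspa8 had -0.77 ± 0.17 (SE, adjusted p = 0.0115) and -0.54 ± 0.17 (SE, adjusted p = 0.0726). Without each library 8, 7, 9 and 4 members were called, and Hspa5, Hsph1, Hspd1 and Hyou1 were called each time.

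The promoters of 3 called chaperones that hold the ER stress element are shown for that reason. The element was searched as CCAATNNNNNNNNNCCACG on both strands in the 250 bases before the start, and the RefSeq sequences (GRCm38.p6) of the last 150 bases are printed 5′ to 3′ with the element in capitals. In Creld2 it lies on the reverse strand.
Hspa5 (chr2:34771940-34772089, + strand): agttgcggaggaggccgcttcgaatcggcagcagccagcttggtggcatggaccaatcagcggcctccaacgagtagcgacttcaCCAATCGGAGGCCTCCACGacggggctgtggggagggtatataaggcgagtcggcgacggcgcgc
Creld2 (chr15:88819496-88819645, + strand): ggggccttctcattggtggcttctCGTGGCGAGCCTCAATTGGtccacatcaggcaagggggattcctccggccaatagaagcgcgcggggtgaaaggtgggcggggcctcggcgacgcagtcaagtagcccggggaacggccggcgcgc
Pdia6 (chr12:17266439-17266588, + strand): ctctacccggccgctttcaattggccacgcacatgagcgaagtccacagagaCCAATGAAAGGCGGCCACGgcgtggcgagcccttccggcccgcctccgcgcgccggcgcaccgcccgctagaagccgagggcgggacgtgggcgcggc
The element was found in 3 of 8 called chaperones with a promoter in the RefSeq set and in 3 of 14 that were not called (Hsp90b1, Calr and Canx), against 0.13% of all 27025 genes. It was thus found on both sides of the threshold, where Hsp90b1 had a log2 fold change of -0.65 ± 0.13 (SE, adjusted p = 0.00658) and Calr -0.95 ± 0.15 (SE, adjusted p = 0.00133). The inverted heat shock unit GAANNTTC was found in Hspa1b, Hspd1 and Hspe1 of the 8 called, in Hspa1a and Dnaja1 of the 14 others, and in 7.73% of all genes.

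**Figure D3:**
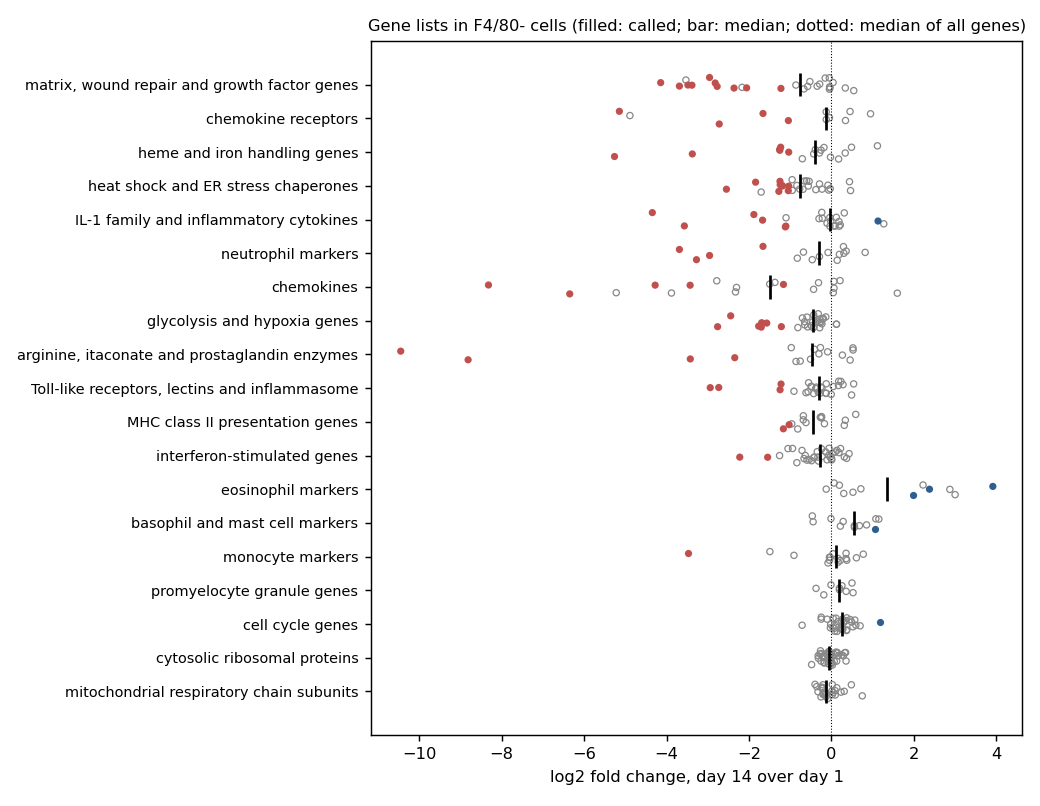
Log2 fold change (day 14 over day 1, x axis) of each tested member of the main gene lists (rows), with called members filled, the list median as a bar and the median of all genes as a dotted line. Matrix genes, chaperones and chemokines lie mostly left of 0, with medians of -0.76, -0.77 and -1.50, and the eosinophil list lies mostly to the right with a median of 1.35.

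The eosinophil granule genes Epx, Prg2 and Prg3 were higher on day 14. Epx, eosinophil peroxidase (chr11:87864000-87875536, - strand), was at 0 and 2.7 CPM on day 1 and 15.8 and 26.2 CPM on day 14 and rose by 3.92 on the log2 scale (SE 0.67, adjusted p = 0.0027). Prg2, the major basic protein, was at 6.68 and 13.98 CPM on day 1 and 42.6 and 65.3 CPM on day 14 and rose by 2.38 on the log2 scale (SE 0.52, adjusted p = 0.0133), and its relative Prg3 changed from 1.22 and 0.27 to 3.13 and 2.77 CPM and rose by 1.99 on the log2 scale (SE 0.50, adjusted p = 0.0278). These were the 3 called of 12 tested eosinophil markers (25%, against 3.25% of all genes), with a median of 1.35 and 11 of 12 values above 0. The list summed to 192 and 179 CPM on day 1 and 262 and 311 CPM on day 14. In CD9+ macrophages of day 14 the levels were far higher, at 1816 and 3066 CPM for Epx and 3927 and 6237 CPM for Prg2. Epx had log2 fold changes of 0.74 in CX3CR1+ macrophages, 4.07 in CD9+ macrophages and 4.18 in neutrophils. Those of Prg2 were 1.12, 3.92 and 3.05 in the same order. Neither gene was called in the tests of a difference from the macrophages. The granule ribonuclease Ear2 was at 10.5 and 9.62 CPM on day 1 and 14.4 and 10.3 CPM on day 14 and was not called (0.30 ± 0.31 (SE, adjusted p = 0.67)), with days that overlap. The surface lectin Siglecf had 0.07 ± 0.26 (SE, adjusted p = 0.93), and the lipoxygenase Alox15 had 0.52 ± 0.21 (SE, adjusted p = 0.163). Without each library 2, 2, 2 and 1 markers were called, Epx each time.

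Basophil genes were abundant on both days. Prss34, also named mast cell protease 11 and made by basophils, was at 350.4 and 283 CPM on day 1 and 705 and 607 CPM on day 14 and rose by 1.05 on the log2 scale (SE 0.25, adjusted p = 0.023), just past the fold threshold. The call was absent with each library left out. Mcpt8, a basophil protease, was at 225 and 188 CPM on day 1 and 392 and 354 CPM on day 14 with 0.85 ± 0.29 (SE, adjusted p = 0.106), and Gata2, a transcription factor of basophils and progenitors, had 0.56 ± 0.29 (SE, adjusted p = 0.311). Hdc, which makes histamine, was at 378 and 383 CPM on day 1 and 285 and 275 CPM on day 14 and had -0.44 ± 0.25 (SE, adjusted p = 0.345). Of 12 tested members 1 was called (8.33%, against 3.25% of all genes) and the median was 0.56.

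Single members of 3 other marker lists were called, each lost when any 1 library was left out. Sox4 changed from 3.17 and 4.72 to 12.8 and 12.8 CPM and rose by 1.70 on the log2 scale (SE 0.47, adjusted p = 0.0446), as 1 of 8 tested progenitor markers. Cd209a, a lectin of monocyte-derived dendritic cells, changed from 8.49 and 6.46 to 22.2 and 18.4 CPM and rose by 1.44 on the log2 scale (SE 0.36, adjusted p = 0.026), as 1 of 12 tested markers of conventional dendritic cells. Slc4a1, the anion exchanger of red cells, changed from 0.2 and 0 to 2.84 and 2.04 CPM and rose by 4.56 on the log2 scale (SE 1.26, adjusted p = 0.0446), as 1 of 7 erythroid markers, whose sum was 61.2 and 55.4 CPM on day 1 and 90.8 and 91.98 CPM on day 14.

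The transcription factors of granulocyte and monocyte development Cebpa and Cebpb were among the genes with the largest rise. Cebpa (chr7:35119293-35121928, + strand) was at 25.8 and 29.7 CPM on day 1 and 122 and 121 CPM on day 14 and rose by 2.13 on the log2 scale (SE 0.31, adjusted p = 0.00072). Cebpb was at 23.3 and 35.01 CPM on day 1 and 243 and 228 CPM on day 14 and rose by 3.01 on the log2 scale (SE 0.68, adjusted p = 0.016), and its call was lost with each library left out. The SE of Cebpb draws on all libraries, and its neutrophil libraries of day 1 stood at 214 and 2502 CPM. Cebpa and Cebpb had log2 fold changes of 1.94 and 3.03 in CX3CR1+ macrophages, 1.08 and 1.16 in CD9+ macrophages and 0.56 and 0.12 in neutrophils. Neither was called in the tests of a difference from the macrophages. Cebpe, which drives late granulocyte maturation, was at 116 and 101 CPM on day 1 and 119 and 130.3 CPM on day 14 and had a log2 fold change of 0.19 ± 0.27 (SE, adjusted p = 0.766). Both called genes have a single exon and a high GC content, 62.6% and 67.2%, features that the next paragraphs describe for the called genes as a whole.

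Immediate early genes were mostly not called. Of 22 tested AP-1 and EGR genes 2 were higher and 0 lower (9.09%, against 3.25% of all genes), with a median of 0.37. Klf2, a factor of quiescent leukocytes, was at 145 and 166 CPM on day 1 and 426 and 337 CPM on day 14 and rose by 1.30 on the log2 scale (SE 0.25, adjusted p = 0.00605). Jund changed from 77.4 and 115 to 315 and 284 CPM and rose by 1.64 on the log2 scale (SE 0.35, adjusted p = 0.0108), and its call was lost after correction for GC content. Fos, Jun and Zfp36 had log2 fold changes of 0.35 ± 0.15 (SE, adjusted p = 0.216), 0.68 ± 0.20 (SE, adjusted p = 0.0582) and -0.03 ± 0.14 (SE, adjusted p = 0.942). Without each library 0, 2, 0 and 1 members were called.

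Histone genes made up 31 of the 121 genes called higher, which is 45.6% of the 68 tested, against 1.01% of all genes. Replication-dependent histones lie in clusters, have a single exon and end in a stem loop in place of a poly(A) tail, and they are expressed in S phase. The group was noticed after the values were seen. Of 58 tested clustered genes (Hist symbols) 29 were called higher and 0 lower, 57 had values above 0, and the median was 1.23. Of 10 other histone genes 2 were called, H2afx and H2afv, with a median of 0.69. The members are closely similar, so reads may be split among them.

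The level of the leading histone genes was clear in each library. Hist1h4c was at 59.95 and 64.8 CPM on day 1 and 256 and 202 CPM on day 14 and rose by 1.88 on the log2 scale (SE 0.24, adjusted p = 0.000279). Hist1h3c changed from 41.2 and 52.9 to 198 and 169 CPM and rose by 1.96 on the log2 scale (SE 0.34, adjusted p = 0.00315), and Hist2h2ab from 4.05 and 5.59 to 36.4 and 28.6 CPM and rose by 2.75 on the log2 scale (SE 0.57, adjusted p = 0.00915). Hist1h2ai, Hist1h2ad, Hist1h2af and Hist1h3h had log2 fold changes of 2.83 ± 0.79 (SE, adjusted p = 0.0458), 2.60 ± 0.68 (SE, adjusted p = 0.0343), 2.09 ± 0.44 (SE, adjusted p = 0.00979) and 1.99 ± 0.50 (SE, adjusted p = 0.0264). The most abundant, the linker histone Hist1h1c, had 0.91 ± 0.25 (SE, adjusted p = 0.0409) and was not called. Both libraries of day 14 thus held more histone RNA for the core histones named here.

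Fewer histone genes were called with any 1 library left out, where 1 day has a lone library. The median log2 fold change of the histone genes stayed between 0.93 and 1.23 over all alternatives. Without each library in turn 7, 10, 8 and 15 of the 31 calls were made, and 6 genes, all of histone H4, were called each time (Hist4h4, Hist1h4k, Hist1h4h, Hist1h4f, Hist1h4c and Hist1h4a). A correction for GC content, chosen after seeing the data, left 22 of the 31 and a median over all 68 histone genes of 0.93 against 1.13 without it. The clustered genes were also higher on day 14 in the other populations, with medians of 0.70 in CX3CR1+ macrophages, 0.82 in CD9+ macrophages and 0.92 in neutrophils. None of the 58 was called in either test of a difference from the macrophages.

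**Figure D4:**
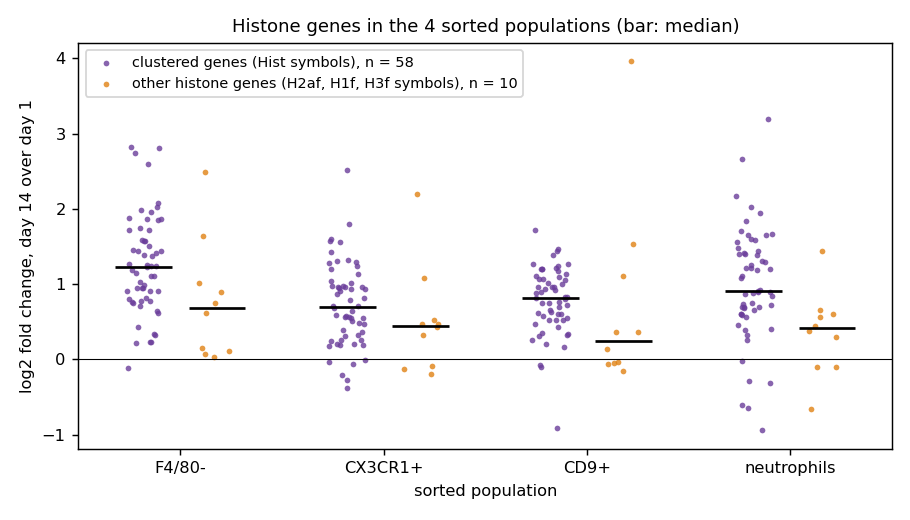
Log2 fold change of day 14 over day 1 (y axis) of the 58 clustered (purple) and 10 other (orange) histone genes in F4/80- cells, CX3CR1+ macrophages, CD9+ macrophages and neutrophils, 1 point per gene with the median as a line. The medians of the clustered genes are 1.23, 0.70, 0.82 and 0.92.

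Cell cycle genes did not rise with the histones beyond a small shift. Of 34 tested members 1 was called (2.94%, against 3.25% of all genes), and 28 values lay above 0 with a median of 0.25. The called member was the inhibitor Cdkn2c, from 18.7 and 22.96 to 42.3 and 51.5 CPM (1.17 ± 0.26 (SE, adjusted p = 0.013)). Mki67, the proliferation marker Ki-67, was at 2719 and 2744 CPM on day 1 and 3126 and 3386 CPM on day 14 and had 0.25 ± 0.21 (SE, adjusted p = 0.565). Top2a, Mcm6 and Rrm2 had log2 fold changes of 0.49, 0.52 and 0.04 and none was called.

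Several measures of RNA composition moved with the same days, and their part in the rise of the histones was not tested. Clustered histone genes took 0.794% and 0.839% of counts on day 1 and 1.87% and 1.64% on day 14. Genes annotated as miRNA took 0.433% and 0.801%, then 2.43% and 2.56%, and mitochondrial ribosomal RNA 12.6% and 12.8%, then 8.96% and 9.2%. Rn7sk, a small nuclear RNA without a poly(A) tail, was at 1360.4 and 1169 CPM on day 1 and 4357 and 3219.7 CPM on day 14 and rose by 1.58 on the log2 scale (SE 0.27, adjusted p = 0.00246). Reads of histone genes, of genes annotated as miRNA and of Rn7sk, which was named after its values were seen, were thus all more frequent in both libraries of day 14. The median GC content was 54.8% for the genes called higher, 49.6% for those called lower and 49.1% for all tested genes. Single-exon genes were 42.1% of the genes called higher (24.4% with the histones left out), 14.9% of those called lower and 11.7% of all.

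Lists of general cell functions gave few or no calls. Of 40 cytosolic ribosomal proteins 0 were called, with a median of -0.05 and a range from -0.48 to 0.36, and of 26 subunits of the mitochondrial respiratory chain 0 were called, with a median of -0.12. Of 26 cholesterol and fatty acid genes 1 was called (3.85%, against 3.25% of all genes). This was the cholesterol exporter Abca1, from 25.8 and 28.2 to 3.35 and 4 CPM (-2.88 ± 0.39 (SE, adjusted p = 0.000405)). Fasn had a log2 fold change of -0.46 and was not called. No member was called among 5 tested markers each of plasmacytoid dendritic cells, of T and NK cells and of platelets, among 6 of B and plasma cells, and among 8 of stroma, bone and endothelium. Their medians were 0.41, 0.76, -0.79, 0.68 and -0.86, over few genes, many of them low. Ighm, the heavy chain of IgM, was at 588 and 445 CPM on day 1 and 277 and 329 CPM on day 14 and was not called (adjusted p = 0.101).

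The change over time in F4/80- cells was next set against that in CX3CR1+ macrophages, by an interaction contrast. Differences are given as the log2 fold change of F4/80- cells minus that of the macrophages. In 121 of 11998 genes (1.01%) the 2 changes differed, 60 with a larger and 61 with a smaller value in F4/80- cells. Leaving out 1 library at a time left 56 to 79 calls, and each of the 8 libraries lowered the number by over 1.5 times.

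Genes that were lower on day 14 in CX3CR1+ macrophages, and less so or not in F4/80- cells, led 1 side. Lrg1, a secreted glycoprotein of neutrophil granules, was at 102 and 105 CPM on day 1 and 78.1 and 80.2 CPM on day 14 in F4/80- cells and at 59.4 and 47.4 CPM on day 1 and 1.13 and 0.74 CPM on day 14 in CX3CR1+ macrophages, a difference of 5.42 (SE 0.42, adjusted p = 2.06e-05). Wfdc21 and Cdh1 (E-cadherin) differed by 4.60 (SE 0.72, adjusted p = 0.0044) and 4.01 (SE 0.46, adjusted p = 0.000342). Igf2r, which sorts lysosomal enzymes, was at 98.4 and 91.6 CPM on day 1 and 130.2 and 154 CPM on day 14 against 30.5 and 48.8 CPM on day 1 and 1.57 and 7.33 CPM on day 14 and differed by 3.75 (SE 0.51, adjusted p = 0.00126). AA467197 was at 2.72 and 6.11 CPM on day 1 and 0 and 0.09 CPM on day 14 in CX3CR1+ macrophages, with 1 read on day 14, and at 10.8 and 10.5 CPM on day 1 and 4.22 and 5.22 CPM on day 14 in F4/80- cells (adjusted p of the difference = 0.0346). In the macrophages each of these genes was lower in both libraries of day 14.

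On the other side stood genes with a lower value in F4/80- cells. Retnlg was at 0.4 and 1.62 CPM on day 1 and 4.36 and 5.38 CPM on day 14 in CX3CR1+ macrophages, against the fall in F4/80- cells above, and the difference was -5.59 (SE 0.52, adjusted p = 5.64e-05). Mmp9 was at 0.92 and 6.06 CPM on day 1 and 7.15 and 10.1 CPM on day 14 there and differed by -5.03 (SE 0.75, adjusted p = 0.00328). Flt1, a VEGF receptor, was at 4.68 and 4.08 CPM on day 1 and 2.04 and 1.71 CPM on day 14 in F4/80- cells and at 7.6 and 5.64 CPM on day 1 and 26.8 and 30.4 CPM on day 14 in CX3CR1+ macrophages, with a difference of -3.32 (SE 0.39, adjusted p = 0.00045). Pik3c2b was at 0.09 and 0.16 CPM on day 1 and 1.74 and 1.39 CPM on day 14 in CX3CR1+ macrophages and at 9.56 and 8.62 CPM on day 1 and 12.9 and 13.8 CPM on day 14 in F4/80- cells and differed by -3.06 (SE 0.61, adjusted p = 0.0211). Cd55, a complement inhibitor, was at 18.1 and 16.3 CPM on day 1 and 5.09 and 4.65 CPM on day 14 in F4/80- cells, but its 2 CX3CR1+ libraries of day 1 held no read, so the fitted size of its difference (adjusted p = 0.0391) depends on the prior count.

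Against CD9+ macrophages the change over time differed in 203 genes (1.69%), 71 with a larger and 132 with a smaller value in F4/80- cells. Scaling by library size alone gave 40 and 215, with a median difference of -0.22 over all genes, so the balance between the sides depends on the scaling. The 2 CD9+ libraries of day 1 also stood further apart than any other pair, with a correlation of 0.935 across genes. Without replicate 1 of them 956 genes were called, 198 of the 203 among them, and without replicate 2 there were 297. Leaving out F4/80- libraries left 15 calls without day 14 replicate 1, 74 without day 14 replicate 2, 87 without day 1 replicate 1 and 85 without day 1 replicate 2. It was 106 and 78 without CD9+ day 14 replicate 1 and replicate 2.

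Of the 132 genes on the lower side, 119 had a log2 fold change above 0 in CD9+ macrophages and 13 below 0. In F4/80- cells 31 of the 132 averaged under 3 CPM on both days, so they entered the test through another population. Igf1, Cspg4, Slamf9 and Ahnak2 are among them and were tested because of their level in CD9+ macrophages. Igf1, a growth factor, was at 2.55 and 1.9 CPM on day 1 and 27.6 and 42.2 CPM on day 14 in CD9+ macrophages and under 1 CPM in every F4/80- library. Cspg4 was at 3.46 and 6.02 CPM on day 1 and 78.3 and 113 CPM on day 14 in CD9+ macrophages, also under 1 CPM in F4/80- cells. Slamf9 and Ahnak2 differed by -6.93 (SE 1.13, adjusted p = 0.00798) and -6.12 (SE 0.98, adjusted p = 0.00723). The F4/80- libraries of day 14 held 2 reads each for Igf1 and Cspg4 in sum, so their fitted differences depend on the prior count and describe the macrophages. Stab1, a scavenger receptor, was at 10.3 and 9.49 CPM on day 1 and 0.07 and 0.33 CPM on day 14 in F4/80- cells and at 139 and 329 CPM on day 1 and 141 and 239 CPM on day 14 in CD9+ macrophages, a difference of -5.32 (SE 0.87, adjusted p = 0.00748). Dab2 was at 35.4 and 39.04 CPM on day 1 and 1.67 and 2.45 CPM on day 14 in F4/80- cells and at 272 and 284 CPM on day 1 and 116 and 196 CPM on day 14 in CD9+ macrophages and differed by -3.35 (SE 0.36, adjusted p = 0.000572). Arg1 was lower on day 14 in both, at 2180.1 and 2602 CPM on day 1 and 33.5 and 44 CPM on day 14 in CD9+ macrophages, and the changes differed (adjusted p = 0.00441).

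On the upper side all 71 genes had a log2 fold change below 0 in CD9+ macrophages, and 4 of them, Ednrb included, averaged under 3 CPM in F4/80- cells on both days. Ednrb, an endothelin receptor, was at 25.7 and 25.1 CPM on day 1 and 1.25 and 1.42 CPM on day 14 in CD9+ macrophages and at 0.88 and 1.6 CPM on day 1 and 1.38 and 0.65 CPM on day 14 in F4/80- cells, a difference of 3.97 (SE 0.68, adjusted p = 0.0101). Aif1 was at 3.46 and 2.93 CPM on day 1 and 7.93 and 7.51 CPM on day 14 in F4/80- cells, where it rose (1.27 ± 0.31 (SE, adjusted p = 0.0253)), against 38.3 and 62.3 CPM on day 1 and 14.4 and 26.2 CPM on day 14, and the difference was 2.58 (SE 0.42, adjusted p = 0.00748). Oplah, Ms4a8a and Arhgef37 differed by 2.41 (SE 0.53, adjusted p = 0.0301), 2.34 (SE 0.52, adjusted p = 0.0327) and 2.34 (SE 0.40, adjusted p = 0.00972). Of the 203 genes 52 were also called in F4/80- cells between the days (25.6% of the 203 and 13.3% of the 390), and of the 121 above it was 26 (21.5% and 6.67%). These comparisons share the F4/80- libraries.

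**Figure D5:**
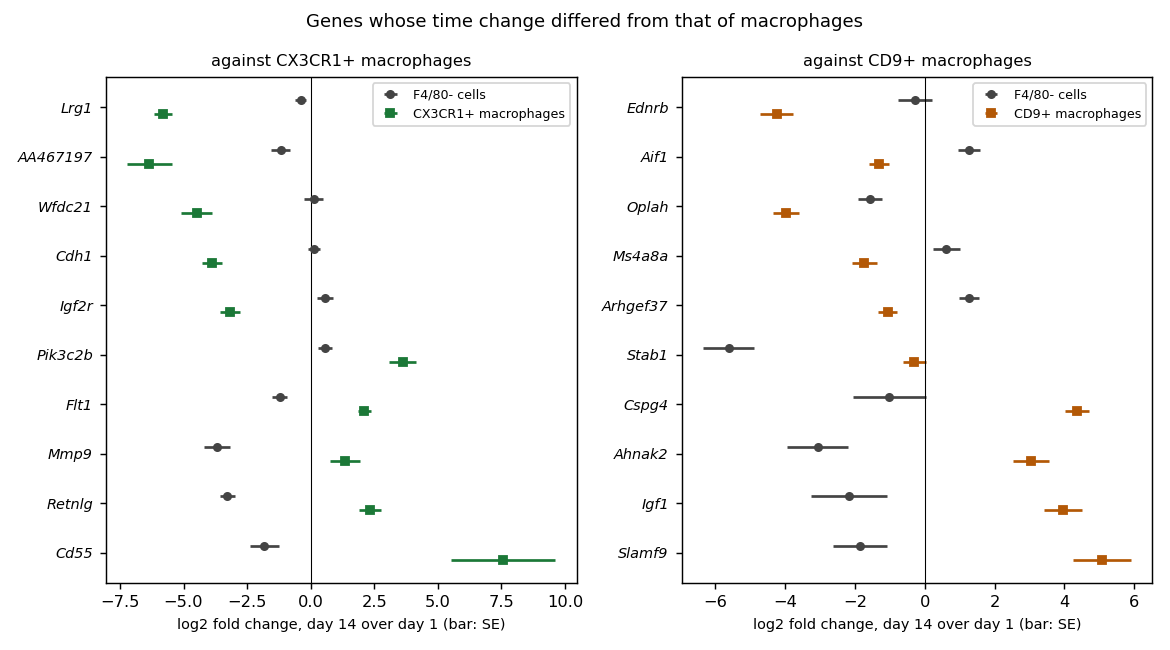
Log2 fold change of day 14 over day 1 (x axis) in F4/80- cells, CX3CR1+ macrophages and CD9+ macrophages for the 10 genes named in each test, 5 a side, with standard errors as bars. Lrg1 lies near 0 in F4/80- cells and at -5.81 in CX3CR1+ macrophages. The values of Cd55 and AA467197 in CX3CR1+ macrophages and of Igf1 and Cspg4 in F4/80- cells rest on 0 to 2 reads on 1 of the days and depend on the prior count.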

How the data were processed

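RNA of myeloid cells sorted from mouse interface tissue was made into stranded SMART-Seq libraries and sequenced as paired-end reads. The authors trimmed adapters with Cutadapt, aligned the reads to mm10 with STAR and deposited raw read counts per gene over Gencode exons. The table lists 20200 genes, and the filter that left them is not given in the sources used here. All 16 libraries of 4 populations on day 1 and day 14 had a column of their own, with total counts from 9233952 to 19814119, and their groups came from the labels.

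The test covered the 11998 genes that averaged 3 CPM or more in any of the 8 groups. Counts were scaled by TMM and tested with edgeR 4.0.16 (glmQLFit and glmQLFTest) in R 4.3.3, with 1 mean per group over all 16 libraries and no covariate. Called genes passed the thresholds of the study's methods, an adjusted p (Benjamini-Hochberg) under 0.05 with a log2 fold change of 1 or more in size. Whether populations differed in their change was tested by contrasts in this fit. Alternatives were DESeq2 1.42.0, other scalings, filters, thresholds and library sets, thinning, replicate blocks and leaving out each library. A correction for GC content and a fit of protein-coding genes only were added after seeing the data. Where a day held at most 3 reads over its 2 libraries, a ratio of reads with its 95% interval or a bound from a floor of 3 reads is given. Such intervals and bounds hold for counting error alone, because amplified reads that carry no molecular identifier do not stand for separate molecules. List medians were equal with such genes at their bound.

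The comparison and the gene lists were chosen with earlier results of these data known. Named were the 15 called genes with the largest and the 15 with the smallest log2 fold change among those with non-overlapping groups and at least 10 CPM on the higher day, without immunoglobulin segments and unnamed models, the called members of each list with up to 4 further members of highest level, the sort genes, and 5 genes on each side of the interaction tests. Gene positions and GC content came from GENCODE vM21 for mm10, and promoters from RefSeq. On simulated counts for this comparison over 11998 genes, 39% of genes changed 2-fold and 94% of those changed 4-fold were called, with 6 unchanged genes called. These counts were drawn with the spread fitted to a gene's level, and no gene had a spread of its own. The real data may thus give fewer true calls and more false ones. A 2-fold change also lies at the fold threshold itself. Same-numbered libraries of the 2 days did not deviate together (r = -0.03 over genes), so no pairing was used. Results for some genes are not reported here.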

Additional observations from a re-analysis of the deposited data

Results flagged for a closer look

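Counted here are the genes selected by size, the called list members, the sort genes and the genes named in each interaction test. For 22 of them the change over time in F4/80- cells differed from that in CX3CR1+ macrophages. The test was an interaction term in edgeR with Benjamini-Hochberg adjustment over all tested genes, where 1.01% of genes were called. Other genes named in the text are not counted. Of these, S100a8 and S100a9 differed too, by 3.62 (SE 0.66, adjusted p = 0.0117) and 2.77 (SE 0.63, adjusted p = 0.0473). Values are the log2 fold change in F4/80- cells minus that in the macrophages. Among neutrophil and matrix genes it was -5.59 (SE 0.52, adjusted p = 5.64e-05) for Retnlg, -5.03 (SE 0.75, adjusted p = 0.00328) for Mmp9, -2.47 (SE 0.38, adjusted p = 0.00431) for Mmp8 and -1.55 (SE 0.32, adjusted p = 0.0299) for Vcan, all lower in F4/80- cells. For Spp1 and Adam8 the fall was smaller in F4/80- cells, with differences of 2.09 (SE 0.33, adjusted p = 0.0051) for Spp1 and 1.39 (SE 0.30, adjusted p = 0.0338) for Adam8. For surface proteins it was -2.83 (SE 0.47, adjusted p = 0.00659) for Fpr1, -2.05 (SE 0.39, adjusted p = 0.0163) for Bst1 and -3.32 (SE 0.39, adjusted p = 0.00045) for Flt1. Cd9, one of the sort antigens, differed by 1.71 (SE 0.20, adjusted p = 0.000342), and its product was among the antigens that separated the populations. Interferon-stimulated genes went both ways, with -1.66 (SE 0.30, adjusted p = 0.011) for Oas2 and 3.11 (SE 0.39, adjusted p = 0.000584) for Ifitm1. H2-Eb1, Bnip3 and Hsph1 had a lower value in F4/80- cells, with -1.41 (SE 0.31, adjusted p = 0.0409) for H2-Eb1, -1.15 (SE 0.21, adjusted p = 0.0117) for Bnip3 and -1.30 (SE 0.28, adjusted p = 0.0405) for Hsph1. The largest positive differences were 5.42 (SE 0.42, adjusted p = 2.06e-05) for Lrg1, 4.60 (SE 0.72, adjusted p = 0.0044) for Wfdc21, 4.01 (SE 0.46, adjusted p = 0.000342) for Cdh1 and 3.75 (SE 0.51, adjusted p = 0.00126) for Igf2r. Pik3c2b differed by -3.06 (SE 0.61, adjusted p = 0.0211). The fitted values of the next genes depend on the prior count, since CX3CR1+ macrophages held 0 or 1 read on 1 day, and they are no bounds: 5.17 (SE 1.11, adjusted p = 0.0346) for AA467197 and -9.38 (SE 2.01, adjusted p = 0.0391) for Cd55.

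For 23 of the genes counted in this way the change differed from that in CD9+ macrophages by the same test, where 1.69% of genes were called. Genes named in the text but not counted differed too. Among them were Ear2 with -3.07 (SE 0.42, adjusted p = 0.00251) and Hdc with -1.80 (SE 0.35, adjusted p = 0.0177). Fn1 differed by 1.84 (SE 0.32, adjusted p = 0.0101) and F13a1 by 1.40 (SE 0.33, adjusted p = 0.0377). Alox15, Osm and Ighm were called as well, with -1.39, 1.25 and -1.55. Among neutrophil and matrix genes it was -4.46 (SE 0.40, adjusted p = 0.000131) for Retnlg, -3.87 (SE 0.66, adjusted p = 0.00895) for Mmp9, -1.76 (SE 0.39, adjusted p = 0.0311) for Mmp8 and -2.51 (SE 0.44, adjusted p = 0.0101) for Mmp14, all lower in F4/80- cells. Tgfbi, Il4ra and Egln3 had a higher value in F4/80- cells, with 1.08 (SE 0.24, adjusted p = 0.0305) for Tgfbi, 1.12 (SE 0.23, adjusted p = 0.0211) for Il4ra and 1.49 (SE 0.33, adjusted p = 0.0311) for Egln3. Macrophage genes with a lower value in F4/80- cells were Dab2 and Stab1, with -3.35 (SE 0.36, adjusted p = 0.000572) for Dab2 and -5.32 (SE 0.87, adjusted p = 0.00748) for Stab1. Bst1 and Hspa1b differed by -2.17 (SE 0.39, adjusted p = 0.0121) for Bst1 and -2.76 (SE 0.67, adjusted p = 0.048) for Hspa1b. Oas2 and Ifitm1 again went opposite ways, with -1.35 (SE 0.31, adjusted p = 0.0358) for Oas2 and 1.64 (SE 0.35, adjusted p = 0.0263) for Ifitm1. The largest positive differences were 3.97 (SE 0.68, adjusted p = 0.0101) for Ednrb, 2.58 (SE 0.42, adjusted p = 0.00748) for Aif1, 2.41 (SE 0.53, adjusted p = 0.0301) for Oplah, 2.34 (SE 0.52, adjusted p = 0.0327) for Ms4a8a and 2.34 (SE 0.40, adjusted p = 0.00972) for Arhgef37. Slamf9 and Ahnak2 differed by -6.93 (SE 1.13, adjusted p = 0.00798) for Slamf9 and -6.12 (SE 0.98, adjusted p = 0.00723) for Ahnak2. Both averaged under 3 CPM in F4/80- cells on both days, as did Igf1 and Cspg4. For the next genes F4/80- cells held 2 reads on day 14, so that the fitted values depend on the prior count and are no bounds: -4.50 (SE 0.66, adjusted p = 0.00441) for Arg1, -6.12 (SE 1.15, adjusted p = 0.0139) for Igf1 and -5.37 (SE 1.11, adjusted p = 0.0211) for Cspg4. These differences rest on 2 libraries a group, and those with CD9+ macrophages include the day 1 pair that stood apart.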

How the results depend on the processing

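The number of genes called between the days in F4/80- cells was 158 when every group had to reach 3 CPM (7687 genes tested), 651 with the 4 libraries alone, 732 without the fold threshold and 157 with glmTreat at a fold of 1.5. Leaving out 1 library gave 174 to 257. For the difference from CX3CR1+ macrophages the number was 217 with DESeq2, 307 with only the compared libraries and 48 with glmTreat, and 56 to 79 with 1 library left out. For the difference from CD9+ macrophages it was 379 with DESeq2, 100 with 3 CPM in every group, 73 with only the compared libraries and 61 with glmTreat, and 15 (without F4/80- day 14 replicate 1) to 956 (without CD9+ day 1 replicate 1) with 1 library left out. The cause of these shifts was not tested beyond the fewer genes or samples that the settings hold. In the fits with a library left out, the lone library is assumed to vary like the other groups.

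A block for the replicate number over all libraries gave 421, 143 and 232 calls, and within each day 416, 142 and 241, each within 1.5 times of the numbers without it. Same-numbered libraries of 1 day correlated at 0.01 to 0.14 over genes in their deviations. The other scalings, no filter, filterByExpr, the fit without neutrophils, thinning, the GC correction and the fit of protein-coding genes also stayed within 1.5 times of all 3 numbers. Single genes were followed only where they were selected by size or belong to a list, the histone genes included. Other called genes named in the text are not in the next counts. Of the 121 called genes named, 49 kept their call under all 20 alternatives that gave a value, 70 lost it when a library was left out, 72 under any setting, and 0 changed direction. In simulated counts 61% of genes changed 2-fold passed the adjusted p and 39% the fold threshold as well, so a gene without a call is not shown to be unchanged.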

Other observations

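The genes named here belong to none of the lists and were chosen after their values were seen. Their calls were not followed over the alternatives above. Cd38, Enpp1 and Entpd3 are ectoenzymes that act on nucleotides. Cd38, which splits NAD, changed from 11.6 and 8.94 to 1.45 and 0.98 CPM and fell by 3.06 on the log2 scale (SE 0.35, adjusted p = 0.000117). Enpp1, which makes pyrophosphate from ATP, changed from 5.71 and 3.07 to 0.8 and 0.98 CPM and fell by 2.29 on the log2 scale (SE 0.55, adjusted p = 0.0224), and Entpd3 from 1.71 and 1.19 to 0.07 and 0.24 CPM and fell by 3.15 on the log2 scale (SE 0.85, adjusted p = 0.0401). Fpr2, the neighbour of Fpr1, was at 56.4 and 43.9 CPM on day 1 and 18.5 and 21.1 CPM on day 14 and fell by 1.34 on the log2 scale (SE 0.19, adjusted p = 0.000488). The inhibitory receptor Pirb was at 223 and 189 CPM on day 1 and 81.5 and 83.2 CPM on day 14 and fell by 1.32 on the log2 scale (SE 0.14, adjusted p = 3.71e-05), and the mast cell and myeloid receptor Milr1 fell by 1.13 on the log2 scale (SE 0.16, adjusted p = 0.000681). Serpinb2, the inhibitor PAI-2 of plasminogen activators, changed from 3.51 and 4.31 to 0.44 and 0.41 CPM and fell by 3.18 on the log2 scale (SE 0.48, adjusted p = 0.00103). Saa3, an acute phase protein, changed from 6.98 and 6.05 to 0.07 and 0.24 CPM and fell by 5.32 on the log2 scale (SE 0.47, adjusted p = 9.93e-06).

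Slc7a11, which imports cystine, was at 19.1 and 40.97 CPM on day 1 and 8.22 and 5.96 CPM on day 14 and fell by 2.08 on the log2 scale (SE 0.44, adjusted p = 0.0106), and Srxn1 changed from 7.27 and 9.21 to 2.62 and 2.53 CPM and fell by 1.68 on the log2 scale (SE 0.36, adjusted p = 0.0113). The Schlafen gene Slfn4 was at 270.1 and 259 CPM on day 1 and 83.7 and 97.2 CPM on day 14 and had -1.55 on the log2 scale. Its relative Slfn1 was at 65.4 and 45.2 CPM on day 1 and 16.7 and 15.5 CPM on day 14 and had -1.78 on the log2 scale. The transglutaminase Tgm2 was at 25.5 and 30.7 CPM on day 1 and 3.71 and 3.75 CPM on day 14 and fell by 2.91 on the log2 scale (SE 0.34, adjusted p = 0.00012). All of these had non-overlapping days.

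Among genes higher on day 14, Zfp36l2, which destabilizes mRNAs, was at 125 and 158 CPM on day 1 and 346 and 366 CPM on day 14 and rose by 1.33 on the log2 scale (SE 0.26, adjusted p = 0.00627). Cd69, an activation marker, was at 109 and 86.7 CPM on day 1 and 222 and 185 CPM on day 14 and rose by 1.05 on the log2 scale (SE 0.28, adjusted p = 0.0387). Igfbp4, which binds insulin-like growth factors, was at 76.5 and 101 CPM on day 1 and 199.8 and 204 CPM on day 14 and rose by 1.19 on the log2 scale (SE 0.20, adjusted p = 0.00229). Lmo1 changed from 7.37 and 8.43 to 28.1 and 28.2 CPM and rose by 1.83 on the log2 scale (SE 0.21, adjusted p = 0.00012), and the prostaglandin-degrading enzyme Hpgd from 2.83 and 2.11 to 9.31 and 8.49 CPM and rose by 1.85 on the log2 scale (SE 0.41, adjusted p = 0.0137). Ighg3, the constant region of IgG3, had no read in both libraries of day 1 and 9.89 and 12.8 CPM on day 14, so with a floor of 3 reads over the group it was at least 159-fold higher. In CD9+ macrophages it was at 0 and 0 CPM on day 1 and 103 and 39.4 CPM on day 14.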
